A study of Mus musculus with 208 samples.

Results

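The genes described here encode the opioid and tachykinin peptide precursors of the striatum and their receptors. The 8 genes were taken by symbol from the 39179 gene rows of the deposited tables: the peptide precursors Penk, Pdyn and Tac1, the opioid receptors Oprd1, Oprk1 and Oprm1, and the tachykinin receptors Tacr1 and Tacr3. All 8 had reads in each of the 208 libraries and all 8 passed the filter on low counts at every age.

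The libraries were made from polyA RNA of the mouse striatum, the input nucleus of the basal ganglia. Mice heterozygous for a knock-in Htt allele with a CAG repeat of 20, 80, 92, 111, 140 or 175 units, named Q20 to Q175, were studied with wild-type mice. Htt is the gene whose expanded CAG repeat causes Huntington's disease. All mice were of the C57BL/6 strain, and tissue was taken at 2, 6 or 10 months of age. The 26 groups held 8 libraries each, 4 from females and 4 from males, apart from Q80 at 2 months (3 females and 5 males) and Q20 at 10 months (5 females and 3 males), by their labels. The library labelled male M3 of Q80 at 2 months had 0 counts over 4 Y-linked genes, where every other library labelled male had at least 3383, and it was kept under its label. At 6 months each line came with its own group of wild types from the same housing, and at 2 and 10 months the single wild-type group was housed with Q20. Q20, with a repeat of normal length, served as the comparison group for the longer repeats. The labels do not say whether the lines share the rest of the knock-in allele, so line and repeat length cannot be told apart. The allele is present in every cell of the mouse, and whole tissue was sampled, so a lower level in a library cannot be divided into fewer cells of a type and less RNA per cell. Library totals, in units of 1000000 counts, ran between 29.1 and 49.6, with a median of 35.7.

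Neurons of the striatum that project to other nuclei fall into a pair of classes. Those of the indirect pathway carry the dopamine receptor Drd2 and make enkephalin from Penk, and those of the direct pathway carry Drd1 and make dynorphin from Pdyn and substance P from Tac1. Enkephalins act mainly on the delta and mu receptors (Oprd1 and Oprm1), dynorphins on the kappa receptor (Oprk1), and substance P on the NK1 receptor (Tacr1), while the NK3 receptor (Tacr3) prefers neurokinin B. Opioid receptors couple to inhibitory G proteins and tachykinin receptors to Gq. In the striatum Tacr1 is best known from interneurons, among them the cholinergic ones.

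Promoter windows from RefSeq (GRCm38.p6, 250 bases before to 50 bases after the annotated start) were held for 6 of the 8 genes, all but Penk and Oprk1. The 3 printed belong to 2 peptide genes and a receptor. Tac1 mRNA was not found to change with repeat length, Pdyn fell, and Oprd1 was the receptor with the largest fall in Q175. Penk, the peptide gene that fell most, had no window. Capitals mark the matches, on either strand, to the motifs searched: TGACGTCA (the cAMP response element), TGCGTCA (the same letters with a base missing), TGANTCA (AP-1), CACGTG (an E-box of the kind bound by USF) and TATAAA.
Tac1, chr6:7554811-7555110, plus strand: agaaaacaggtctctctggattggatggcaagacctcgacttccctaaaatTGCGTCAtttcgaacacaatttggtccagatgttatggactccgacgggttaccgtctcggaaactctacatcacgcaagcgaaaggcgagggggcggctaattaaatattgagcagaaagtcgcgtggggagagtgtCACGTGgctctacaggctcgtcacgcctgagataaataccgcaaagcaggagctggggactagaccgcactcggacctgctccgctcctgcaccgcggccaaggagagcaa
Pdyn, chr2:129699889-129700188, minus strand: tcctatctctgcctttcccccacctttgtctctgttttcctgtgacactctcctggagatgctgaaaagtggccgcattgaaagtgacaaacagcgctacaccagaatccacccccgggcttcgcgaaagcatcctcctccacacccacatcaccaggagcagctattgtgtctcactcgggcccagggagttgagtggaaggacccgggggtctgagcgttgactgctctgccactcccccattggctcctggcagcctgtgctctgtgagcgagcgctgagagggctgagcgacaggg
Oprd1, chr4:132144437-132144736, minus strand: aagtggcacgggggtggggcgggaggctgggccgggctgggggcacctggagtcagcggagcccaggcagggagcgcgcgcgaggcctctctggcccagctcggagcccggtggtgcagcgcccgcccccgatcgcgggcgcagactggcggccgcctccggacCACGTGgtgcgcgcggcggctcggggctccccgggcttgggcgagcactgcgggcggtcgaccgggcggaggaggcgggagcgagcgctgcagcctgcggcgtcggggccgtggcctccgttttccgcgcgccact
The Tac1 window held TGCGTCA and CACGTG, the Oprd1 window held CACGTG, and the printed Pdyn window held none of the 5. A further Pdyn window, at another annotated start (chr2:129698609-129698908), is not printed and held none either. Of the other genes with a window, Tacr3 held TATAAA, and Tacr1 and each of the windows of Oprm1 held none. Among 32851 RefSeq windows of the same length, TGACGTCA was in 1.79%, TGCGTCA in 2.12%, TGANTCA in 7.81%, CACGTG in 7.15% and TATAAA in 13.6%. These matches are descriptions of the letters in the window.

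Per unit length the precursors stood far above their receptors. Averaged over all libraries, Penk had 803 FPKM (fragments per kilobase of transcript, scaled to library size), Tac1 184 FPKM and Pdyn 48.7 FPKM. The receptors followed with 7.73 FPKM for Tacr1, 6.86 for Oprk1, 6.07 for Oprd1, 2.61 for Tacr3 and 0.690 for Oprm1. Oprm1 rested on a median of 56 counts a library (2 to 108), against a median of 36594 counts for Penk (13001 to 93943), so its values are the least precise of the 8. Oprm1 also overlaps Ipcef1 and Gm10945 on the other strand, and Penk overlaps A830012C17Rik on the other strand. Whether the authors counted by strand is not given in the sources used here, so reads of these pairs may not be separable.

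Tests were made on counts with edgeR's quasi-likelihood test, with sex as a covariate, and p-values were adjusted by Benjamini-Hochberg over all genes tested at an age. A gene was called at an adjusted p under 0.05. At 2 months no member was called in any line against Q20, where 0.0117% of all genes were called for Q80, 0% for Q92, 0.00586% for Q111, 0% for Q140 and 0.217% for Q175. With DESeq2, Penk was called in Q175 at this age (adjusted p = 0.0273). At an unadjusted p under 0.05 the Q92 and Q140 comparisons held 1.27% and 4.59% of genes. At 6 months the members called were 0 for Q80, 3 for Q92, 2 for Q111, 4 for Q140 and 6 for Q175, against 0.289%, 5.99%, 12.8%, 27.9% and 36.2% of all genes. At 10 months they were 0 for Q80, 1 for Q92, 2 for Q111, 6 for Q140 and 6 for Q175, against 0.122%, 1.11%, 12.5%, 22.5% and 24.4% of all genes. The median log2 fold change of the 8 genes in Q175 was -0.29 at 6 months and -0.31 at 10 months, while that of all genes was 0.01 at both ages.

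**Figure D1:**
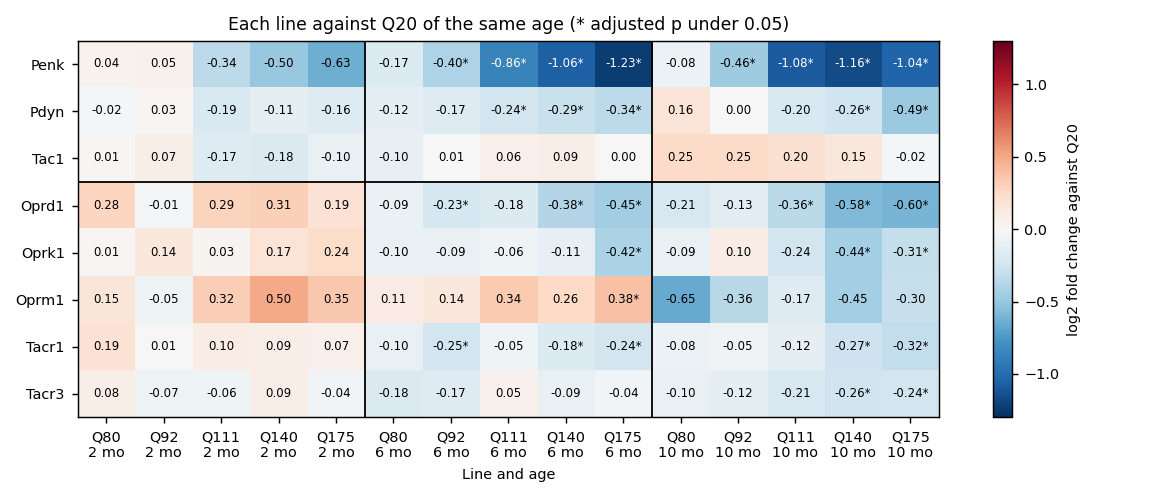
Log2 fold change of each of the 8 genes (rows) in each line against Q20 of the same age (columns), from edgeR, with an asterisk at an adjusted p under 0.05. Blue is lower and red higher than Q20; the darkest cells are those of Penk, which reaches -1.23 in Q175 at 6 months, while no cell of Tac1 carries an asterisk.

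Penk, the enkephalin precursor, was the member that changed most. In Q175 at 6 months its lowest, median and highest libraries had 461.99, 482 and 518.03 FPKM, against 1012, 1071 and 1186 FPKM in Q20. The mean was 486 ± 20.5 FPKM in Q175 and 1077 ± 54.4 FPKM in Q20 (SD, n = 8 each). Every Q175 library lay below every Q20 library by a wide gap. The log2 fold change was -1.23 (SE 0.07; edgeR adjusted p = 2.07e-26), which leaves 42.5% of the Q20 level.

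At 6 months the fall of Penk grew with the length of the repeat. On the log2 scale the change against Q20 was -0.17 in Q80 (adjusted p = 0.329, edgeR), -0.40 in Q92 (2.40e-04), -0.86 in Q111 (7.60e-17) and -1.06 in Q140 (5.16e-22). In counts scaled to 1000000 per library (CPM) the order of the group means was Q20, wild type housed with Q20, Q80, Q92, Q111, Q140 and Q175, with 1371, 1262, 1215, 1041, 753, 659 and 583 CPM. The neighbours wild type and Q80, and Q80 and Q92, differed by less than the larger of their SDs, and the other neighbours by more. Against wild types of their own housing the log2 fold change was -0.29 in Q92 (adjusted p = 0.122), -0.69 in Q111 (3.34e-12), -1.01 in Q140 (7.26e-21) and -1.22 in Q175 (4.40e-26).

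At 10 months Penk was lower in Q92 and in the 3 longest lines, which no longer stood in the order of their repeats. In Q175 the lowest, median and highest libraries had 322, 395 and 418 FPKM, against 640, 744 and 876 FPKM in Q20. The 2 groups did not overlap. Against Q20, Q92 had a log2 fold change of -0.46 (adjusted p = 0.00190, edgeR), Q111 of -1.08 (6.92e-14), Q140 of -1.16 (4.51e-15) and Q175 of -1.04 (SE 0.09; 1.46e-13). Mean levels were 364 FPKM in Q111, 350 FPKM in Q140 and 383 FPKM in Q175, and in CPM neighbours in the order among these 3 lines differed by less than the larger SD, while Q92, the next above them, differed from Q175 by more.

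**Figure D2:**
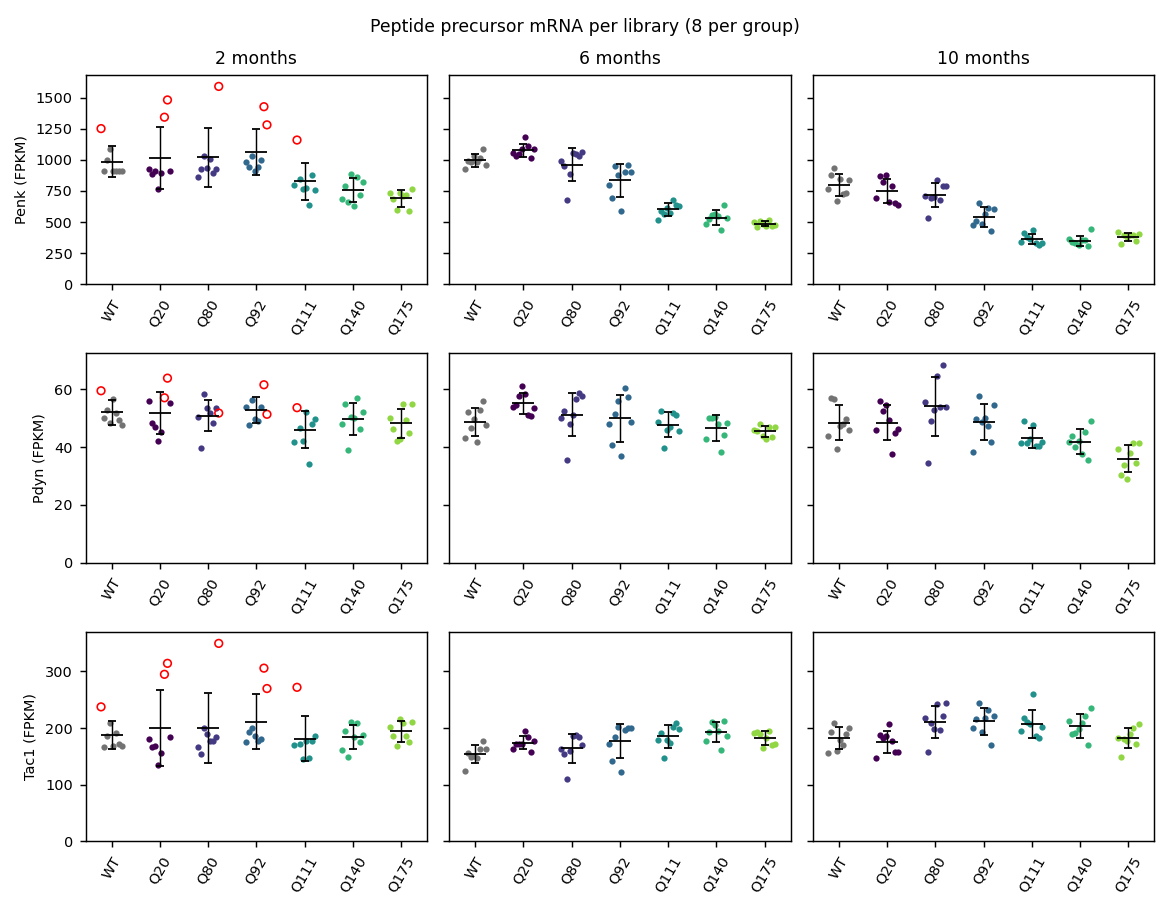
FPKM of Penk, Pdyn and Tac1 (rows) in each library at 2, 6 and 10 months (columns), by line, with wild types housed with Q20 at the left; points are libraries, bars the mean ± SD of 8, and open red circles the 7 libraries of 2 months with over 17% mitochondrial counts. Penk falls across the lines at 6 months to 486 FPKM in Q175, and Tac1 stays between 164 and 192 FPKM on average in the knock-in lines of that age.

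Pdyn, the dynorphin precursor, fell later in the series of repeats and by less. In Q175 at 6 months its libraries ran between 42.7 and 48.2 FPKM with a median of 45.8, against 50.6 to 61.0 FPKM with a median of 54.3 in Q20. The 2 groups did not overlap at this age. The log2 fold change was -0.34 (SE 0.08; edgeR adjusted p = 2.81e-04), or 79.0% of the Q20 level, and in Q111 and Q140 it was -0.24 (0.0301) and -0.29 (0.00330). At 10 months the libraries of Q175 ran between 29.0 and 41.6 FPKM, against 37.6 to 56.0 FPKM in Q20. These ranges overlapped, and Q140 and Q175 were called, at -0.26 (adjusted p = 0.0380) and -0.49 (6.75e-05). Against wild types of the same housing at 6 months only Q175 was called for Pdyn among the 6 lines, at -0.24 (adjusted p = 0.0108), with -0.17 in Q140 (0.10) and -0.03 in Q111 (0.893).

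Tac1, the substance P precursor, was not called in any line against Q20. In Q175 at 6 months it had 182 ± 11.9 FPKM against 174 ± 12 FPKM in Q20 (SD, n = 8 each), and at 10 months 182 ± 18 FPKM against 175 ± 19.7 FPKM. From counts, the log2 fold change was 0.00 (SE 0.08; edgeR adjusted p = 0.974) at 6 months and -0.02 (SE 0.08; 0.916) at 10 months. At 10 months the 4 lines between had means of 204 to 212 FPKM and log2 fold changes of 0.15 to 0.25, none past the threshold (adjusted p = 0.104 to 0.192). The one call for Tac1 was a rise in Q111 against its own wild types at 6 months, of 0.26 (SE 0.08; adjusted p = 0.0307), where those wild types had the lowest mean of the age at 152 FPKM against 185 FPKM in Q111.

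The ratio of Penk to Tac1 sets an indirect-pathway peptide against a direct-pathway one within the same library, and is given as a description without a test. At 6 months it was 2.67 ± 0.162 in Q175, 2.79 ± 0.108 in Q140, 3.26 ± 0.284 in Q111, 4.73 ± 0.259 in Q92, 5.89 ± 0.303 in Q80 and 6.19 ± 0.197 in Q20 (SD, n = 8 each), and 6.29 ± 0.417 over all 48 wild types. Its highest Q92 library, 5.20, lay below the lowest of Q20, 5.98, and of Q80, 5.56. At 10 months it was 2.11 ± 0.111 in Q175, with a range of 1.96 to 2.30, and lower in the shorter lines Q140 (1.58 to 1.87) and Q111 (1.65 to 1.88), which Q175 did not overlap. At that age the ratio was 4.31 ± 0.50 in Q20 and 3.39 ± 0.133 in Q80, whose range of 3.22 to 3.59 left 1 of the 8 Q20 libraries, at 3.21, below it. At 2 months it already stood at 3.56 ± 0.174 in Q175, where the highest library had 3.85, against 5.18 ± 0.433 in Q20, where the lowest had 4.55. The ratio of Tac1 to Pdyn, both genes of the direct pathway, moved the other way, to 4.01 ± 0.228 in Q175 against 3.17 ± 0.245 in Q20 at 6 months, and to 5.09 ± 0.465 against 3.66 ± 0.522 at 10 months.

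**Figure D3:**
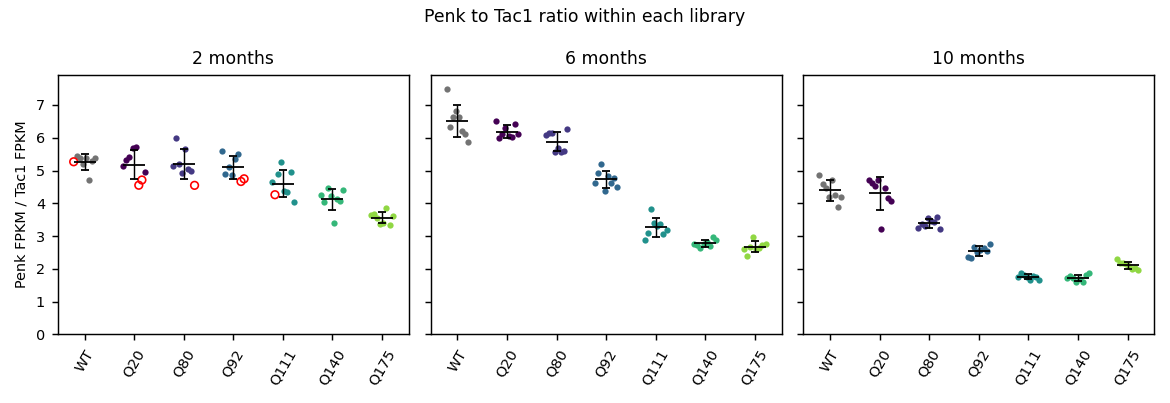
Ratio of Penk to Tac1 FPKM within each library (vertical axis, linear) by line at 2, 6 and 10 months; wild types are those housed with Q20, bars are the mean ± SD of 8, and open red circles are the 7 libraries of 2 months with over 17% mitochondrial counts. The Q175 libraries lie below all Q20 libraries at each age, and at 10 months Q111 and Q140 lie below Q175.

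Among the receptors, the delta receptor gene Oprd1 had the largest fall in Q175 at 6 and at 10 months. In Q175 at 6 months its lowest, median and highest libraries had 4.99, 6.02 and 6.61 FPKM, against 7.08, 7.61 and 8.55 FPKM in Q20. At 10 months they had 2.47, 3.98 and 4.79 FPKM in Q175, against 4.90, 5.69 and 6.31 FPKM in Q20. The groups did not overlap at either age. The fall came to a log2 fold change of -0.45 (SE 0.07; edgeR adjusted p = 3.44e-08) at 6 months and -0.60 (SE 0.12; 1.38e-04) at 10 months, or 73.0% and 66.0% of the Q20 level. Oprd1 was also called in Q92 (-0.23, adjusted p = 0.0289) and Q140 (-0.38, 4.62e-06) at 6 months, and in Q111 (-0.36, 0.0399) and Q140 (-0.58, 2.85e-04) at 10 months. Against wild types of their own housing, Q140 and Q175 were called at -0.30 (3.90e-04) and -0.45 (5.40e-08).

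The kappa receptor gene Oprk1 was lower in the longest lines. In Q175 at 6 months its libraries had 5.13, 5.75 and 5.99 FPKM at the lowest, median and highest, against 5.58, 7.10 and 8.83 FPKM in Q20. The Q20 libraries were spread widely, and the lowest fell inside the Q175 range in FPKM, although in CPM the groups did not overlap (21.1 to 24.8 in Q175 and 24.9 to 38.8 in Q20). The log2 fold change was -0.42 (SE 0.10; edgeR adjusted p = 4.12e-04), and -0.35 against the wild types housed with Q175 (0.00348). The other lines of 6 months were not called for Oprk1, with log2 fold changes between -0.11 and -0.06. At 10 months the fall was -0.44 in Q140 (5.47e-04) and -0.31 in Q175 (0.0152), with 5.20 ± 0.289 FPKM in Q140, 5.77 ± 0.578 FPKM in Q175 and 6.89 ± 1.0 FPKM in Q20 (SD, n = 8 each).

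The mu receptor gene Oprm1 was the only member called higher in a line against Q20. In Q175 at 6 months its libraries had 0.603, 0.793 and 1.07 FPKM at the lowest, median and highest, against 0.415, 0.604 and 0.846 FPKM in Q20. The ranges overlapped. In edgeR the log2 fold change was 0.38 (SE 0.15; adjusted p = 0.0383), but 0.08 (0.726) against the wild types housed with Q175, and -0.30 (SE 0.24; 0.391) at 10 months. The overlapping gene Ipcef1 moved in the same comparisons by 0.90 at 6 months (adjusted p = 0.00832) and 0.31 at 10 months (0.360), and its part in the Oprm1 counts was not tested. The gene that overlaps Penk, A830012C17Rik, averaged 4.23 CPM at 6 months, which is far below the lowest Penk library of that age. It fell in the same comparisons as Penk, by 1.29 on the log2 scale in Q175 at 6 months (edgeR adjusted p = 8.16e-20) and by 1.17 at 10 months (7.94e-09), and the share of reads between the 2 genes was not tested.

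Of the tachykinin receptors, Tacr1 was called lower than Q20 in several lines and Tacr3 only passed the threshold at 10 months. Tacr1 in Q175 at 6 months had 7.22, 7.78 and 8.44 FPKM at the lowest, median and highest, against 8.11, 8.81 and 9.33 FPKM in Q20. The groups overlapped slightly in FPKM and not in CPM. The log2 fold change was -0.24 (SE 0.07; edgeR adjusted p = 0.00275) in Q175, -0.18 in Q140 (0.0320) and -0.25 in Q92 (0.0160), and -0.05 in Q111 (0.695), so the lines called did not follow the repeat in order. At 10 months it was -0.27 in Q140 (0.00290) and -0.32 in Q175 (SE 0.07; 3.21e-04), with 6.16 ± 0.716 FPKM in Q175 and 7.39 ± 0.567 FPKM in Q20 (SD, n = 8 each). Against wild types of their own housing at 6 months, Q175 was the only line called for Tacr1, and Q92 and Q140 were not.

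Tacr3 in Q175 at 10 months had 2.02, 2.48 and 3.59 FPKM at the lowest, median and highest, against 2.62, 2.86 and 3.6 FPKM in Q20. The ranges overlapped, although 5 of the 8 Q175 libraries lay below the lowest of Q20. Its log2 fold change was -0.24 (SE 0.09; edgeR adjusted p = 0.0396) in Q175 and -0.26 (SE 0.09; 0.0290) in Q140, and at 6 months it was -0.04 in Q175 (0.711). The Q175 call did not hold against wild types, at -0.11 (0.415).

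**Figure D4:**
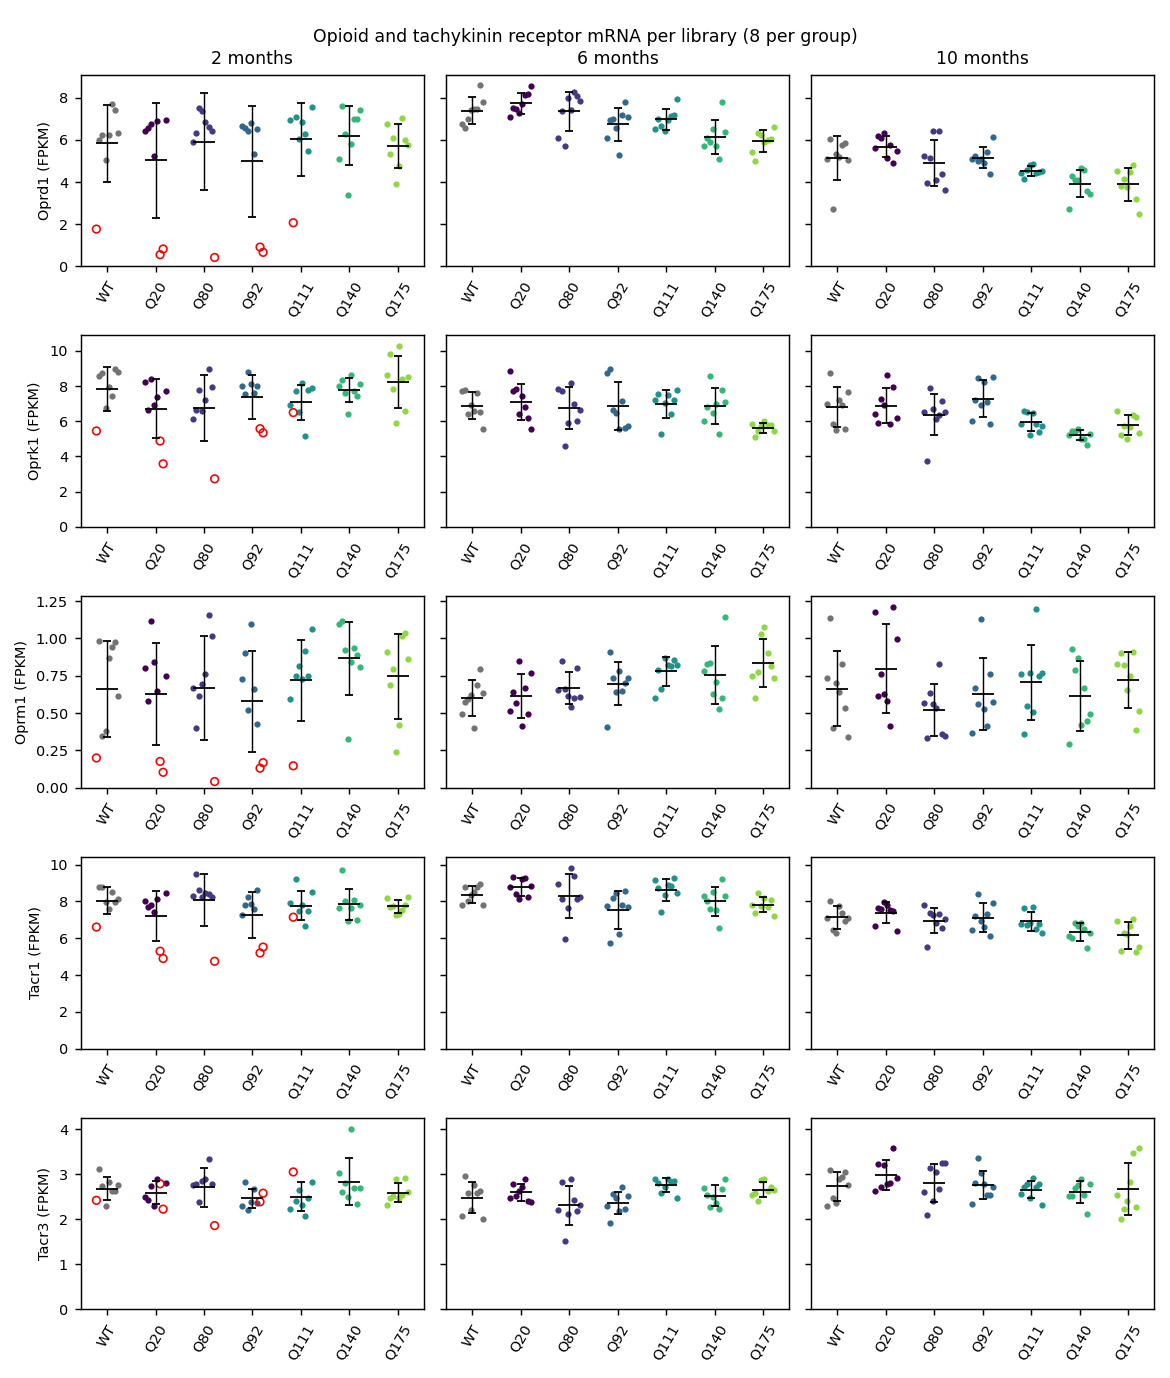
FPKM of the receptor genes Oprd1, Oprk1, Oprm1, Tacr1 and Tacr3 (rows) in each library at 2, 6 and 10 months (columns), by line, with wild types housed with Q20 at the left; points are libraries, bars the mean ± SD of 8, and open red circles the 7 libraries of 2 months with over 17% mitochondrial counts. Oprd1 falls to 5.94 FPKM in Q175 against 7.74 FPKM in Q20 at 6 months, and the open circles sit below the other libraries of their groups in Oprd1 and Oprm1.

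In CPM, 5 of the 8 members did not overlap between Q175 and Q20 at 6 months (Penk, Pdyn, Oprd1, Oprk1 and Tacr1), all lower in Q175. Of all genes tested, 6.33% had every Q175 library below every Q20 library at that age. At 10 months 2 members did not overlap in Q175 (Penk and Oprd1), 3 in Q140 (Penk, Oprd1 and Oprk1) and 1 in Q111 (Penk), again all lower, against 3.22%, 3.22% and 1.78% of all genes. Set beside the wild types housed with Q175 at 6 months, Pdyn and Tacr1 of Q175 overlapped. Pdyn had 95.4 to 109 CPM in Q175 and 101 to 134 CPM in those wild types. Tacr1 had 34.8 to 41.0 CPM and 37.5 to 45.8 CPM. Penk, Oprd1 and Oprk1 did not overlap there, and the share of all genes was not computed for that comparison. For members other than Penk most neighbours in the order of group means differed by less than the larger SD. The exceptions were Oprk1 between Q140 and Q175 at 6 months, Tacr1 between Q111 and Q140 at 10 months, and Pdyn at 10 months between Q20 and Q111 and between Q140 and Q175.

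A linear trend per 10 CAG repeats over the 6 knock-in lines called 1 member at 2 months, 6 at 6 months and 6 at 10 months, where 0.357%, 40.9% and 33.2% of all genes were called. Repeat length differs only between the 6 lines, and the libraries of a line entered as separate points. The p-values of the trend therefore do not measure the spread between lines. Penk changed by -0.05 per 10 repeats at 2 months (adjusted p = 0.0220, edgeR), -0.09 at 6 months (3.73e-15) and -0.08 at 10 months (3.30e-10). At 6 months Pdyn, Oprd1, Oprk1 and Tacr1 also fell, by 0.02, 0.03, 0.02 and 0.01 on the log2 scale per 10 repeats, and Oprm1 rose by 0.03 (adjusted p = 0.0116). At 10 months Pdyn, Oprd1, Oprk1, Tacr1 and Tacr3 fell, by 0.04, 0.04, 0.03, 0.02 and 0.02. Without Q175 the trend calls at 6 months were 3 members rather than 6, and at 2 months 0 rather than 1. In these fits 25.0% and 0% of all genes were called.

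Q20 and wild type were compared at each age, and no member was called, with 0% of genes called at 2 months (406 genes at an unadjusted p under 0.05), 0.0227% at 6 months and 0.0116% at 10 months. Against wild types of their own housing at 6 months, 0 members were called for Q80 and 0 for Q92, where 0.051% of genes were called for each. For Q111, Q140 and Q175 the counts were 2, 2 and 5, against 8.94%, 24.2% and 31.8% of genes. No member differed among the 6 wild-type groups of 6 months (smallest adjusted p = 0.537, for Tac1), where 1.34% of genes did.

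Between females and males, over all groups of an age, no member was called at 2 months (0.914% of genes called), with or without the Q80 library M3 that goes against its label, or at 10 months (1.25%). At 6 months, where 18.5% of genes were called, 1 member was, Oprd1, which was lower in females by a log2 difference of -0.09 (SE 0.03; adjusted p = 0.0141, edgeR). The effect of Q175 was not found to differ between the sexes for any member, with 0% of genes called at 2 months, 0% at 6 months and 0% at 10 months. In these 3 tests 1210, 1006 and 756 genes had an unadjusted p under 0.05.

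At 2 months 7 of the 56 libraries stood apart, with 17.2% to 24.1% of their counts from mitochondrial genes against 11.4% to 14.9% in the other 49. They were 2 of Q20, 1 of Q80, 2 of Q92, 1 of Q111 and 1 wild type, and none of Q140 or Q175. Over 16823 genes, the deviation of these libraries from the rest of their groups went with transcript length (Spearman rho -0.60, across genes, which are not independent). Its median was 0.60 in the fifth of genes with the shortest transcripts and -0.50 in the fifth with the longest. Among the members the mean log2 deviation was 0.81 for Penk, 0.90 for Tac1 and 0.39 for Pdyn. It was -2.72 for Oprd1, -2.68 for Oprm1, -0.48 for Oprk1, -0.37 for Tacr1 and 0.08 for Tacr3. Among the members these deviations did not follow length closely. Oprm1 (2420 bases) and Pdyn (2386 bases) are of nearly the same length and went opposite ways. The longest, Tacr1 (5021 bases) and Oprk1 (4675 bases), deviated less than Oprd1 (4021 bases). Oprd1 had 2.10 to 8.66 CPM in the 7 libraries and 13.5 to 31.1 CPM in the 49, with no overlap. Since the 7 fall in some lines only, they bear on each comparison at 2 months.

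**Figure D5:**
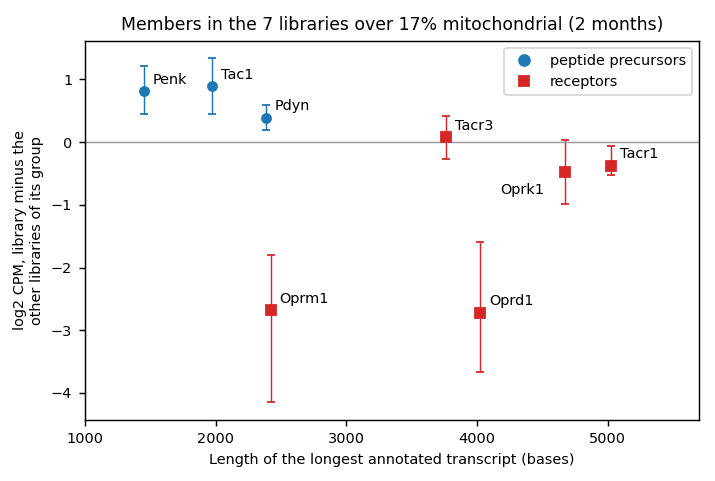
Deviation of the 8 genes in the 7 libraries of 2 months with over 17% mitochondrial counts (vertical axis, log2 CPM minus the mean of the other libraries of the group; points are the mean of the 7 and bars their lowest and highest) against the length of the longest annotated transcript in bases. The 3 precursors lie above 0 and Oprd1 and Oprm1 near -2.7.

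With all libraries, Penk at 2 months had 585.9, 713.6 and 765 FPKM at the lowest, median and highest in Q175, against 767, 911 and 1481 FPKM in Q20. In FPKM the 2 groups met end to end, with the lowest Q20 library just above the highest of Q175, and the 2 high libraries of Q20 were among the 7. In CPM the 2 groups overlapped, with 1024.6 CPM in the highest Q175 library and 1009.6 CPM in the lowest of Q20. The log2 fold change was -0.63 (SE 0.16; edgeR adjusted p = 0.0814), not past the threshold. Without the 7 libraries Q20 had 883 ± 58.6 FPKM (SD, n = 6) against 690 ± 65.8 FPKM in Q175, and the log2 fold change was -0.35 (SE 0.07; adjusted p = 0.00536), past it. In that fit 0.468% of all genes were called and Penk was the 1 member called. The trend without the 7 was -0.03 per 10 repeats for Penk (adjusted p = 0.00166), with 1.55% of genes called. Tac1 in Q175 had a log2 fold change of -0.10 (SE 0.17) with them and 0.21 (adjusted p = 0.217) without them, and Oprd1 one of 0.19 (SE 0.38) and -0.21 (0.454), so neither has a settled direction at this age.

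The effect of Q175 against Q20 was compared between ages in a fit over these 2 lines. Between 2 and 6 months, where 7.06% of genes were called, it grew more negative for 3 members: Penk by -0.60 (SE 0.15; edgeR adjusted p = 0.00943), Oprk1 by -0.66 (SE 0.14; 0.00211) and Tacr1 by -0.31 (SE 0.10; 0.0450). Between 2 and 10 months, where 4.92% of genes were called, Oprk1 (-0.55, 0.0169) and Tacr1 (-0.39, 0.0112) were called, and Penk was not (-0.43, 0.0992). Between 6 and 10 months 1 gene of the whole table was called (0.00579%), which was no member. Without the 7 libraries 10.5% of genes were called between 2 and 6 months, among them Penk (-0.89, 1.04e-08), Oprk1 (-0.54, 0.00428) and Pdyn (-0.32, 0.0417), while Tacr1 was not (-0.20, 0.0988). Between 2 and 10 months, with 4.93% of genes called, Penk (-0.68, 2.93e-06), Pdyn (-0.46, 0.00471) and Tacr1 (-0.28, 0.0295) were called, and Oprk1 was not (-0.42, 0.0505). Between 6 and 10 months 0.0632% were called, and Penk had 0.20 (0.443). Levels themselves were not tested across ages.

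Other genes of the same families and pathways were taken as lists and counted at the same threshold, in Q175 against Q20, where 36.2% of all genes were called at 6 months and 24.4% at 10 months. Of 6 further family genes 4 were tested, and at 6 months 2 rose: Pnoc, the nociceptin precursor (1.03, edgeR adjusted p = 0.0222), and Oprl1, the nociceptin receptor (0.39, 5.18e-08). At 10 months Oprl1 was the 1 called, at 0.23 (0.00190), and Pnoc had 0.03 (0.931). Of 9 genes for the processing of precursors, 4 rose and 2 fell at 6 months, with a median of 0.05. Among them Pcsk1n, an inhibitor of the convertase Pcsk1, rose by 0.55, Pcsk1 rose by 0.38, and Pcsk2, the other neuronal convertase, fell by 0.20 on the log2 scale. At 10 months 2 rose and 1 fell, with Scg5, a chaperone of Pcsk2, at 0.33 and Pcsk2 at -0.14. Of 7 peptidases that break peptides down, 2 rose and 1 fell at 6 months (Ece2 0.51, Ece1 -0.19, Dpp3 0.09) and 1 rose and 1 fell at 10 months (Ece2 0.27, Ece1 -0.12).

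Of 22 genes for signalling behind these receptors, 5 rose and 7 fell at 6 months (36.2% of all genes called), with a median of 0.01, and 3 rose and 7 fell at 10 months (24.4%), with a median of -0.06. The largest changes at 6 months were those of regulators of G-protein signalling, Rgs14 (-1.10), Rgs9 (-0.89) and Rgs4 (-0.86). At 10 months they were Rgs14 (-0.93), Rgs9 (-0.80) and Adcy5 (-0.74), the main striatal adenylyl cyclase. At 2 months, where 0.217% of all genes were called, Rgs4 was the 1 gene of the list called (-0.38, adjusted p = 0.00480). Of 12 other neuropeptide genes, 2 rose and 1 fell at 6 months, with Nts (neurotensin) at 0.58 and Crh (corticotropin-releasing hormone) at -0.82, and the median was 0.06. At 10 months 1 fell, Crh, whose mean of 0.872 CPM is under the 1 CPM asked of a named gene, so that it was named after its values were seen. The medians of all genes in these comparisons were 0.01.

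Markers of the neuron classes moved in the same comparisons, and their counts stand against the same 36.2% and 24.4% of all genes called at 6 and 10 months. All 6 genes shared by projection neurons fell in Q175 at 6 and at 10 months, with medians of -0.85 and -0.72, and their summed level at 6 months was 3742 to 4410 CPM in Q175 against 6966 to 8272 CPM in Q20. Of 4 tested D2-type genes 3 fell at both ages, led by Adora2a (-0.94 at 6 months), and the list's sum was 343 to 395 CPM in Q175 against 568 to 682 CPM in Q20. Of 6 D1-type genes, 3 fell and 2 rose at 6 months. The falls were led by Chrm4 (-0.89) and Drd1 (-0.85), and the list's sum was 301 to 334 CPM in Q175 against 454.4 to 533 CPM in Q20. The fall of Penk thus came with falls in some genes of both projection classes. In the D1 class 2 genes rose, and Tac1 was not called. Of 4 cholinergic genes tested, 2 fell at 6 months and 3 at 10 months. Striosome genes fell in 2 of 6 at 6 months and 4 of 6 at 10 months, matrix genes in 2 and 1 of 3, and interneuron genes of the somatostatin and parvalbumin types in 2 and 1 of 5. Of 8 cortical genes 1 rose at 6 months and 0 at 10 months, and 0 of 6 thalamic and 0 of 7 choroid plexus genes were called at either age. The sums of these 3 lists at 6 months were 69.2 to 139, 41.2 to 301 and 304 to 350 CPM in Q175, against 48.0 to 187, 34.5 to 77.3 and 284 to 384 CPM in Q20. Of 8 hypothalamic and pituitary genes, 6 were tested at 6 months and 2 fell, Gh and Prl, whose list summed to 96.4 CPM in 1 library of Q20 and at most 4.56 CPM in its others. The part of any of these lists in the members' values was not tested.

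Likeness of pattern was measured as Pearson's r over the 26 group means of log2 CPM, centred within each age, among 13108 genes. It is given as a description, since the groups of an age share their preparation. Penk was most like Arpp21 (r = 0.993), Ppp1r1b (0.992) and Chn1 (0.991). Pdyn was most like Mmd2 (0.916), Diras2 (0.912) and Tspan7 (0.910), and Tac1 most like Lamp5 (0.922), Rtn1 (0.865) and Mrps15 (0.835). For the opioid receptors the leading genes were Ice1 for Oprd1 (0.966), Hace1 for Oprk1 (0.902) and Itsn2 for Oprm1 (0.903). For the tachykinin receptors they were Slc17a8 for Tacr1 (0.919) and Lhx6 for Tacr3 (0.796). Without the 7 libraries the leading gene was the same for Penk, Tac1 and Tacr3, and another for the remaining 5 (Tspyl5 for Pdyn, Kif5c for Oprd1, Cdh13 for Oprk1, Rnf24 for Oprm1 and Lama3 for Tacr1).

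Among the members, over the 26 group means, Penk and Pdyn had r = 0.797 and Penk and Tac1 -0.20. Penk and Oprd1 had 0.459 with all libraries and 0.864 without the 7. Between libraries of the same group and sex the picture differed. There Penk and Tac1 varied together, with r = 0.889 over 96 libraries at 6 months and 0.852 over 56 at 10 months, and Penk and Pdyn had 0.764 and 0.736. At 2 months Penk and Tac1 had r = 0.97 over 56 libraries and 0.806 over the 49 without the 7. Between libraries of a group Penk had r = 0.867 with Drd1 and 0.870 with Drd2 at 6 months, and 0.766 and 0.676 at 10 months. At 2 months these were 0.559 and -0.603 with all libraries, and 0.707 and 0.672 without the 7. Points of an age share dissection, preparation and depth, and these correlations carry no test.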

How the data were processed

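PolyA RNA-seq of the mouse striatum gave 208 libraries. The authors deposited one table of estimated counts per Ensembl gene and one of FPKM, the same reads scaled per kilobase and library size. CASAVA 1.8.2 is named in the submitters' processing notes. The aligner, genome build, counting tool and strand setting were not given in the sources used here. Of positive counts, 32.7% were not whole, and counts were rounded before testing. Of 39179 gene IDs, 37607 had a symbol in the reference table.

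From the counts, edgeR 4.0.16 (R 4.3.3) was run with TMM scaling, filterByExpr (minimum count 10, minimum total 15), terms for group and sex, and a separate fit for each age, which tested 17070, 17642 and 17230 genes at 2, 6 and 10 months. The trend used the 6 knock-in groups of an age, and differences between ages used Q175 and Q20. Each p-value was adjusted by Benjamini-Hochberg over all genes tested, with a threshold of 0.05. CPM were computed from the counts, and levels per length are the authors' FPKM. Tested on simulated data, the fits gave back the fold changes put in, but called fewer of the smaller changes than of the larger ones. Alternatives used DESeq2 1.42.0 and limma 3.58.1 on log2 FPKM. The libraries are labelled as separate replicates, with no statement on pooling or on separate litters, so p-values measure only the spread between these samples. Median totals, in units of 1000000 counts, were 31.9, 41.0 and 33.0 at 2, 6 and 10 months.

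The members and gene lists were chosen with earlier results of these data known. Named genes are the 8 members, the 3 largest called changes of each list with a mean of at least 1 CPM (outside this rule Crh at 10 months was named after its values were seen, and Pnoc at 10 months beside its call at 6), and the genes of highest likeness, all 3 for the precursors and the first for the receptors. Alternatives that leave out the 7 libraries over 17% mitochondrial counts, or the Q80 library that goes against its sex label, were chosen after seeing the data. Motifs were searched in RefSeq promoter windows.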

Additional observations from a re-analysis of the deposited data

Results flagged for a closer look

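Each member was looked at in each of the 26 groups, 208 sets of 8 libraries in all, for a single library far from the others, and 17 stood out. Chance alone gives about 1 in 20. Of the 17, 8 belong to the 7 libraries of 2 months with over 17% mitochondrial counts. In library M5 of Q80 these were Penk at 2898.5 CPM (1153 to 1370 in the others), Tac1 at 455.89 CPM, Oprd1 at 2.098 CPM and Tacr1 at 30.144 CPM. In library F2 of Q111 they were Penk at 1665.4 CPM, Tac1 at 293.54 CPM and Oprd1 at 8.6614 CPM, and in library F1 of the wild types Oprd1 at 7.2282 CPM.

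Library F3 of Q80 at 6 months was low in Pdyn, at 80.346 CPM (112 to 137 in the others), and in Tac1, at 114.74 CPM (161 to 200). Its score for choroid plexus genes was 5.59 SD units (-0.72 to 0.55 in the others) and for thalamic genes 2.79 (-0.85 to 0.20), and their part in the low values was not tested. Penk in library M4 of Q140 at 10 months was high at 567.3 CPM (391 to 474). Oprd1 was low in library F3 of the wild types of 10 months at 11.196 CPM (20.6 to 24.7), and Oprk1 in library F2 of Q80 at 10 months at 17.314 CPM (27.7 to 35.5). Tacr1 stood apart in library F2 of Q140 at 2 months at 48.644 CPM, in library M3 of the wild types housed with Q92 at 6 months at 34.544 CPM and in library F2 of those housed with Q175 at 37.516 CPM. Tacr3 was high in library M1 of Q140 at 2 months at 14.508 CPM.

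The effect of Q175 against Q20 differed between ages by test. Between 2 and 6 months the log2 difference was -0.60 for Penk, -0.66 for Oprk1 and -0.31 for Tacr1, and between 2 and 10 months it was -0.55 for Oprk1 and -0.39 for Tacr1. Of the 7 libraries above, 2 are Q20 libraries in these tests.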

How the results depend on the processing

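Of the member results, 58 passed the threshold. Under the alternatives other than leaving out 1 library, these 58 gave 574 values, of which 510 stayed past the threshold, 64 did not and 0 changed sign. DESeq2 and RLE scaling lost none of them. The 222 results that had not passed gave 2216 values, of which 190 changed sign and 54 passed. Depth limits Oprm1 most, at a median of 56 counts.

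Counts at 2 months depended on the setting. In Q175 against Q20 the members called were 0, and 1 (Penk) under DESeq2, both FPKM settings, the replicate block and without the 7 libraries. The genes called were 37, against 66 with DESeq2, 22 with limma on log2(FPKM + 1), 13 with the L code in the library name as a covariate, 56 without libraries under a median correlation of 0.97, 80 without the 7, 11 with only the groups compared and 77 against wild types. The trend at 2 months called 60 genes, against 103 with DESeq2, 37 with that code, 138 without low-correlation libraries, 261 without the 7, 102 on the rank of the line, 199 without Q20 and 0 without Q175, where members called were 0 rather than 1. Without Q175 the trend at 6 months called 4283 genes rather than 7056, and 3 members rather than 6.

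Leaving out each library of Q175 and Q20 in turn gave 22 to 50 genes at 2 months, 5965 to 6269 at 6 months and 3722 to 4184 at 10 months, with 0 to 1, 5 to 6 and 5 to 6 members. Penk at 2 months passed the threshold without Q20 F4 (-0.69, adjusted p = 0.0395). Oprm1 at 6 months was lost in 7 of 16 such fits (adjusted p up to 0.104) and at 0.26 against the mean of all wild-type groups of that age (0.0508). Tacr3 at 10 months was lost in 8 of 16 (up to 0.104), and Oprk1 at 10 months without Q20 F5 (-0.25, 0.0506). Tac1 ranged between -0.17 and 0.027 at 2 months, -0.026 and 0.015 at 6 months and -0.047 and 0.023 at 10 months.

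Replicates are numbered within each sex, so same-numbered libraries of an age share their sex, and the labels give no other tie between them. Deviations of same-numbered Q175 and Q20 libraries, from which sex was not removed, had correlations over 0.1 in 3 of 8 pairs at 2 months, 6 of 8 at 6 months and 3 of 7 at 10 months. The Q20 library most like a Q175 library had its number in 1 of 8 cases at 2 months, 6 of 8 at 6 months and 1 of 7 at 10 months. With the replicate block Penk at 2 months passed (-0.62, adjusted p = 0.0246), Pdyn in Q140 and Oprd1 in Q111 at 10 months did not (0.0631 and 0.0504), and Tac1 in Q175 at 10 months had a log2 fold change of 0.0087.

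Values that changed sign were those of results that had not passed, and the cause was not tested. Tac1 in Q175 turned on the FPKM scale at 2, 6 and 10 months (0.0109, 0.0666 and 0.0501 with a pseudocount of 0.1, and 0.0106, 0.0662 and 0.0499 with 1), as did its trend at 10 months (0.0031 and 0.0030). It also turned with tissue scores (0.13 at 6 months, 0.0068 at 10 months), against wild types (0.0274 at 2 months, 0.10 at 6 months), without low-correlation libraries (0.22, trend 0.0121 at 2 months), without the 7 (0.21, trend 0.0114) and in the trend of 10 months without Q175 (0.0138). Tacr3 turned on the FPKM scale at 2 months (0.0056 and 0.0038, trend 0.0028 and 0.0021) and 6 months (0.0316 and 0.0236), in its trend at 6 months with DESeq2 and RLE (-2.52e-04 and -2.50e-04) and without Q175 (0.0029 at 2 months, -0.0033 at 6 months). It turned with tissue scores (trend 6.18e-05 at 2 months, 0.0708 at 6 months), against wild types at 6 months (0.0339) and in the trend of 2 months without Q80 M3, which goes against its sex label (1.77e-05). At 2 months Oprd1 turned against wild types (-0.0565), without low-correlation libraries (-0.22, trend -0.0152) and without the 7 (-0.21, trend -0.0146). Tacr1 turned at that age in the same settings (-0.0776, then -0.0421 and -0.0057, then -0.0395 and -0.0056) and in the trend without Q20 (-0.0061). Oprm1 turned at 2 months without low-correlation libraries (-0.0650) and without the 7 (-0.0412), and in the trend of 10 months without Q20 (0.0177).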
